A study of Mus musculus with 6 samples.

Results

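Mitochondrial and peroxisomal fatty acid oxidation was followed through 35 genes in mouse epididymal white adipose tissue. The members were the rows of the deposited gene table whose symbol was on a list of 35 names, and all 35 were found among the 48897 genes of that table. By the place of the encoded protein, 20 members were counted as mitochondrial, 9 as peroxisomal, 2 as present in both organelles (Eci2 and Crat), 1 as cytosolic (Acot1) and 3 as regulators in the nucleus (Ppara, Ppargc1a and Ppargc1b). All 35 passed the filter on low counts that left 22289 genes for testing.

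Long-chain fatty acids reach the mitochondrial matrix as acylcarnitines, made by carnitine palmitoyltransferase 1 at the outer membrane, carried across the inner membrane by a translocase and turned back into acyl-CoA by carnitine palmitoyltransferase 2. Each round of beta-oxidation then runs through dehydrogenation, hydration, a second dehydrogenation and thiolysis, and electron transfer flavoprotein passes the electrons of the first step to the respiratory chain. Peroxisomes take up very-long-chain and branched acyl-CoA through ABC transporters, shorten them with their own set of enzymes and send the products on to mitochondria. White fat cells mainly store and release fatty acids, and their oxidative capacity is low beside that of brown fat, muscle or liver. The nuclear receptor PPARα and the coactivators PGC-1α and PGC-1β drive many of these genes in liver and muscle.

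The series examined how weight cycling affects metabolic balance, in wild-type C57BL/6 mice aged 35 weeks, with 6 RNA-seq libraries in 3 groups of 2. F-H-L is read as 9 weeks of high-fat feeding (60% of calories from fat) followed by 10 cycles of 1 week on the low-fat diet (10% of calories from fat) and 1 week back on the high-fat diet. F-H is read as high-fat feeding throughout and F-L as low-fat feeding throughout, all diets starting at 6 weeks of age. The match of code to diet rests on its letters, the cycle as described closes with a high-fat week, and nothing in the labels says that 2 libraries of a group came from 2 mice. So the p-values weigh differences against the spread between libraries of a group, whose source the labels do not give. That spread was far above counting noise (chi-square per degree of freedom 67.5 in F-H-L, 263 in F-H and 810 in F-L). The main fit pooled it over all 6 libraries. The SE and p of F-H-L against F-H therefore also carry the spread of the F-L libraries. Library totals were between 41091012 and 49230161 counts. RPKM, the authors' read count scaled for gene length and library total, is used below for levels, and fold changes come from the counts.

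The libraries differed in the tissue they held, most of all within F-L. The summed level of 20 adipocyte markers was 23332 and 27033 RPKM in F-H-L, 10455 and 15716 RPKM in F-H, and 2574 and 17187 RPKM in F-L replicates 1 and 2. The 19 epididymis epithelium markers, such as Crisp1, summed to 1073 to 1160 RPKM in F-H-L and 2.02 to 322 RPKM in F-H, against 12107 RPKM in F-L replicate 1 and 2719 RPKM in F-L replicate 2. The 14 testis germ cell markers reached 8232 RPKM in F-L replicate 2 and 862 RPKM in F-L replicate 1, with 10.3 to 183 RPKM in the F-H-L and F-H libraries. The 15 macrophage markers summed to 1201 to 1536 RPKM in F-H-L, 7184 to 12094 RPKM in F-H and 388 to 837 RPKM in F-L. Adipoq, the adiponectin gene that defines fat cells, was present in every library, at 1632 and 1395 RPKM in F-H-L, 558 and 1008 RPKM in F-H, and 98.4 and 1274 RPKM in F-L. F-L replicate 1 thus stood apart as the library lowest in fat cell transcripts, and values without it and without F-L replicate 2 are given where they alter a result. In whole tissue, fewer cells of a type and less RNA per cell cannot be told apart.

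The levels of the members spanned over 3 orders of magnitude on the RPKM scale, as the plot of all members by library shows. Averaged over the 6 libraries, the highest were Etfb at 210.5 RPKM, Scp2 at 192 RPKM, Etfa at 146 RPKM and Acadm at 139 RPKM. Etfa and Etfb encode the subunits of electron transfer flavoprotein, Scp2 encodes a peroxisomal thiolase and sterol carrier protein, and Acadm encodes medium-chain acyl-CoA dehydrogenase. The lowest were Ppargc1a at 0.291 RPKM, Ppara at 0.560 RPKM, Cpt1b at 0.590 RPKM and Ppargc1b at 0.751 RPKM, all under 1 RPKM on average. Cpt1a averaged 27.8 RPKM, so the liver isoform of carnitine palmitoyltransferase 1 was the prevailing one in this fat, and Cpt1b, the muscle isoform, was under 0.4 RPKM in 5 of 6 libraries.

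**Figure D1:**
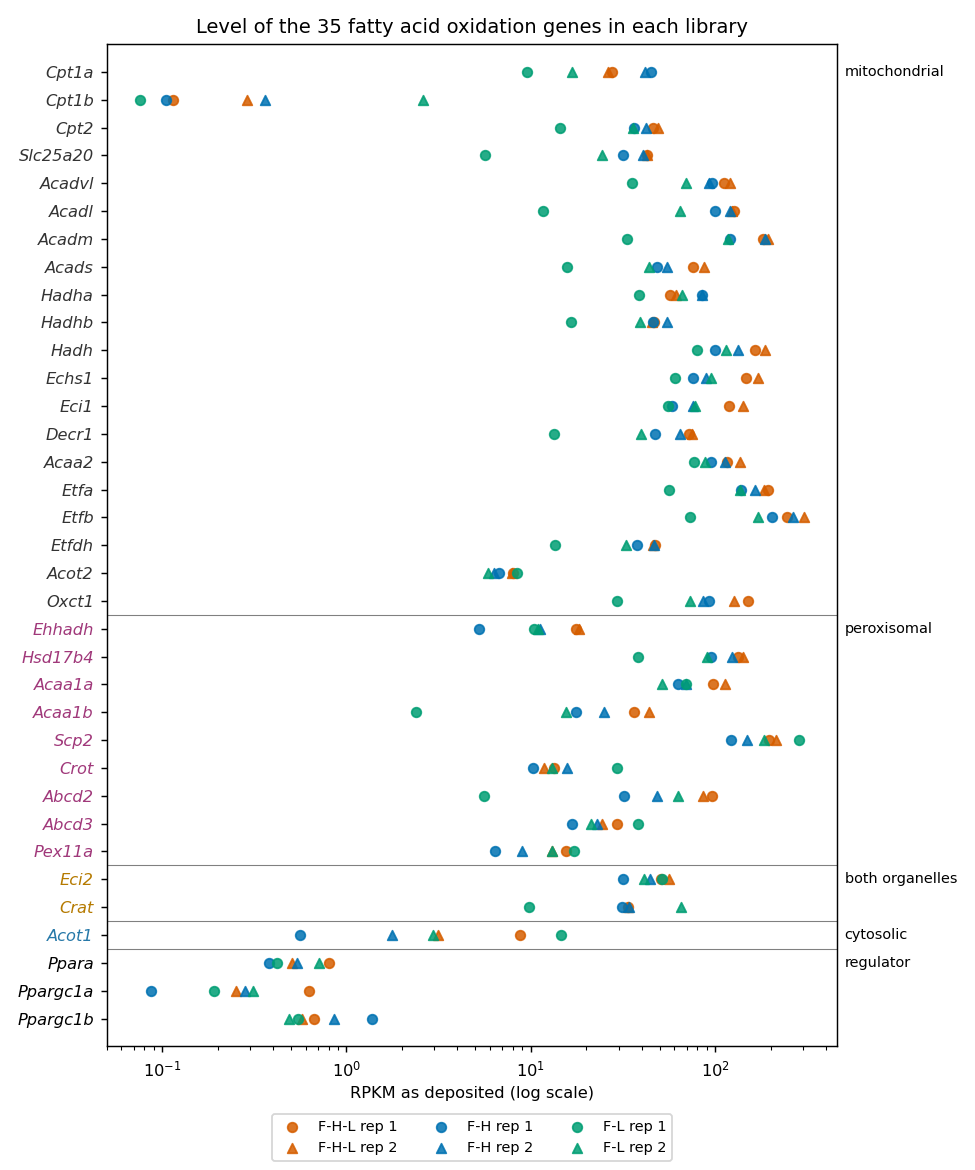
Level of each of the 35 members in each of the 6 libraries, as deposited RPKM on a log scale, grouped by the compartment of the protein; colours mark diet groups and shapes mark replicates. F-L replicate 1 is the lowest library for most mitochondrial members, and the 3 regulators and Cpt1b lie lowest.

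The mitochondrial members were lowest in F-L and highest in F-H-L, whereas the peroxisomal members were highest in F-H-L with overlapping values in F-H and F-L. Summed over 20 genes, mitochondrial members held 1978 and 2129 RPKM in F-H-L, 1464 and 1766 RPKM in F-H, and 648 and 1315 RPKM in F-L. Summed over 9 genes, peroxisomal members held 635 and 665 RPKM in F-H-L, 367 and 476 RPKM in F-H, and 497 and 463 RPKM in F-L. These orders are those of the deposited RPKM. Scaled to the adipocyte markers, the mean mitochondrial sum was lower in F-H-L than in F-L (log2 ratio -1.36) and lower in F-H than in F-L (log2 ratio -0.62). The scaled sums were 949.8 and 966.5 for F-H-L, 1699.6 and 1511.4 for F-H, and 3933 and 999.7 for F-L replicates 1 and 2. Both F-H libraries were thus below F-L replicate 1 and above F-L replicate 2, and the F-H-L libraries were far below F-L replicate 1 and just below F-L replicate 2. As a percentage of the adipocyte sum, the mitochondrial sum was 8.48% and 7.87% for F-H-L, 14.0% and 11.2% for F-H, and 25.2% and 7.65% for F-L replicates 1 and 2. On this measure the F-H-L libraries were just above F-L replicate 2, so their order with it depends on how the markers are combined. The ratio between the compartments needs no scaling. The peroxisomal sum was 32.1% and 31.2% of the mitochondrial sum for F-H-L, 25.1% and 26.9% for F-H, and 76.8% and 35.2% for F-L. F-H had the lowest share in both libraries, with no overlap with either other group. F-L replicate 1 was alone at 76.8%, and there Scp2 made up 57.6% of the peroxisomal sum, against 30.8% to 39.7% in the other libraries. Without Scp2 the share was 22.2% and 21.2% for F-H-L, 16.8% and 18.5% for F-H, and 32.6% and 21.3% for F-L, so F-H again lay below both other groups.

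**Figure D2:**
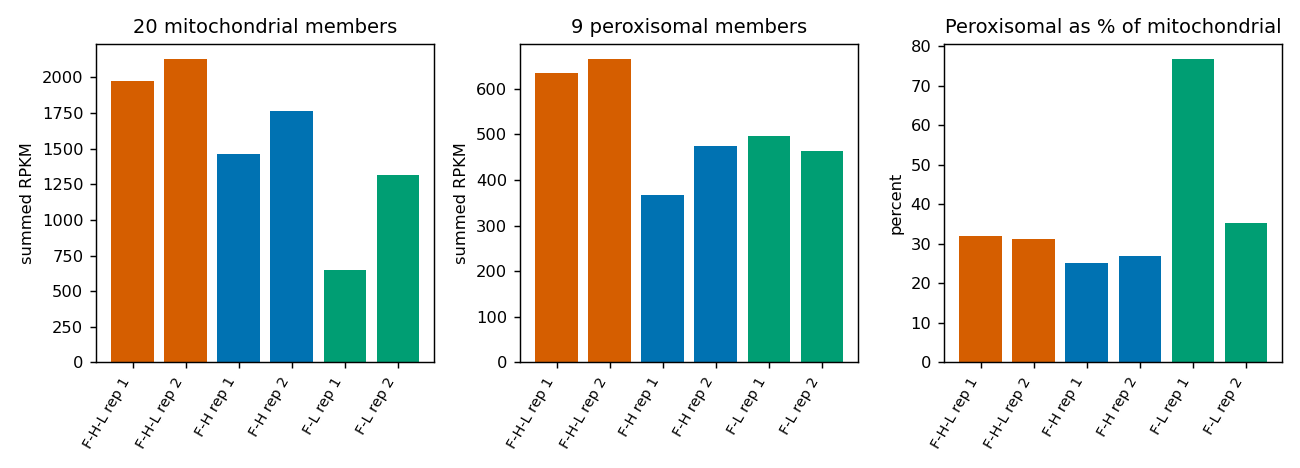
Summed RPKM of the 20 mitochondrial members (left) and of the 9 peroxisomal members (middle) in each library, and the peroxisomal sum as a percentage of the mitochondrial sum (right). The mitochondrial sum is 648 RPKM in F-L replicate 1, the lowest of the 6, and the percentage is 76.8 there against 25.1 to 35.2 in the others.

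Continuous high-fat feeding was set against low-fat feeding by F-H and F-L. Of 20 mitochondrial members, 19 had a positive log2 fold change, with a median of 1.05, while 4 of 9 peroxisomal members did, with a median of -0.16. Leaving out 1 library at a time, the mitochondrial median ran from 0.59 to 1.86, and the peroxisomal median from -0.50 to 0.31, positive without F-H replicate 1 (0.31) and without F-L replicate 1 (0.17). The median over all 22289 genes tested was -0.12. The difference between the medians of the compartments was 1.22. It was positive in each of 19 alternative settings, from 0.42 without F-L replicate 1 to 1.96 without F-L replicate 2. Not all of these could alter it: robust empirical Bayes leaves fold changes as they are. Leaving out an F-H-L library removes none of those compared (1.232 and 1.233). No test of this difference was made, since members of a pathway are not replicates. Scaling to the adipocyte markers moved the median of all genes to -2.06 and left the mitochondrial median at -0.44 and the peroxisomal one at -2.20. The mitochondrial members thus lay above the bulk of genes under either scaling, while their summed level relative to the adipocyte markers overlapped between F-H and F-L, with F-L replicate 1, the library lowest in those markers, above both F-H libraries and F-L replicate 2 below them.

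No member passed the test in F-H against F-L (edgeR quasi-likelihood, Benjamini-Hochberg adjusted p under 0.05), where 193 genes or 0.866% of those tested did. At an unadjusted p under 0.05 there were 10 members, 8 higher and 2 lower, against 29.2% of all genes (12.5% higher and 16.7% lower). The RPKM of 18 members was higher in both F-H libraries than in both F-L libraries, and that of 3 was lower, against 20.9% and 36% of all genes. DESeq2 called 3 members (Cpt1a and Ppargc1b higher, Acot1 lower) among 27.1% of all genes, limma on log2(RPKM + 1) called 0 and limma on log2(RPKM + 0.1) called Cpt1a. The calls turned on the F-L libraries: 2 members, Cpt1a and Acadl, passed without F-L replicate 1 (16.8% of genes called), and 19 passed without F-L replicate 2 (23.8% of genes called), of which 18 were higher in F-H and Acot1 was lower.

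Cycled feeding was set against low-fat feeding by F-H-L and F-L, which shares its F-L libraries with the comparison above. Here both compartments lay above the bulk of genes: 19 of 20 mitochondrial members had a positive log2 fold change (median 1.29) and so did 8 of 9 peroxisomal members (median 1.02), against a median of -0.09 over all genes. The difference between the compartments was 0.28, in a range of 0.16 to 1.14 over 20 alternatives. It was 1.14 when the genes that share part of their sequence with a relative (Acaa1a, Acaa1b and Acot2) were left out. Under scaling to adipocyte markers both medians turned negative, at -1.36 for mitochondrial and -2.24 for peroxisomal members, with the median of all genes at -3.19. No member passed the test, and neither did any of the 22289 genes (0% called by edgeR), although 20 members had an unadjusted p under 0.05, all higher in F-H-L, against 17.8% of all genes (8.32% higher and 9.51% lower). DESeq2 called Echs1 and Eci1 among 11% of genes, and limma called none on either RPKM scale. The RPKM of 23 members lay higher in both F-H-L libraries than in both F-L libraries and that of 0 lay lower, against 21.5% and 33.3% of all genes. Without F-L replicate 1, 4 members were called (Acadl, Acads, Acaa1a and Acaa1b, with 7.85% of genes), and without F-L replicate 2, 20 were (with 14.4% of genes), all higher. Without the low-count filter 17 members were called, with 9.18% of genes.

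Cycled and continuous high-fat feeding were compared by F-H-L and F-H, whose libraries were the most alike within their groups. Positive log2 fold changes were found for 16 of 20 mitochondrial members (median 0.32) and 8 of 9 peroxisomal members (median 0.70), with a median of 0.10 over all genes. The mitochondrial minus the peroxisomal median was -0.39, and between -0.44 and -0.30 in 19 alternatives. Scaling to adipocyte markers put the medians at -0.81 and -0.43, with that of all genes at -1.02. No member passed the test under any setting run, and edgeR called 0% of genes, with 4 members (Echs1, Eci1, Ehhadh and Pex11a, all higher in F-H-L) at an unadjusted p under 0.05 against 10.6% of all genes (4.92% higher and 5.68% lower). DESeq2 called 1196 genes (5.37%) and no member, and limma on log2(RPKM + 1) called 0 genes. Members were also uncalled where 3.12% of genes passed in the absence of F-L replicate 1, 2.5% without F-L replicate 2, 4.13% without the low-count filter and 1.46% with the 2 groups fitted alone. The RPKM of 23 members was higher in both F-H-L libraries than in both F-H libraries, against 33.6% of all genes, and that of 3 (Cpt1a, Hadha and Ppargc1b) was lower, against 27.6%.

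**Figure D3:**
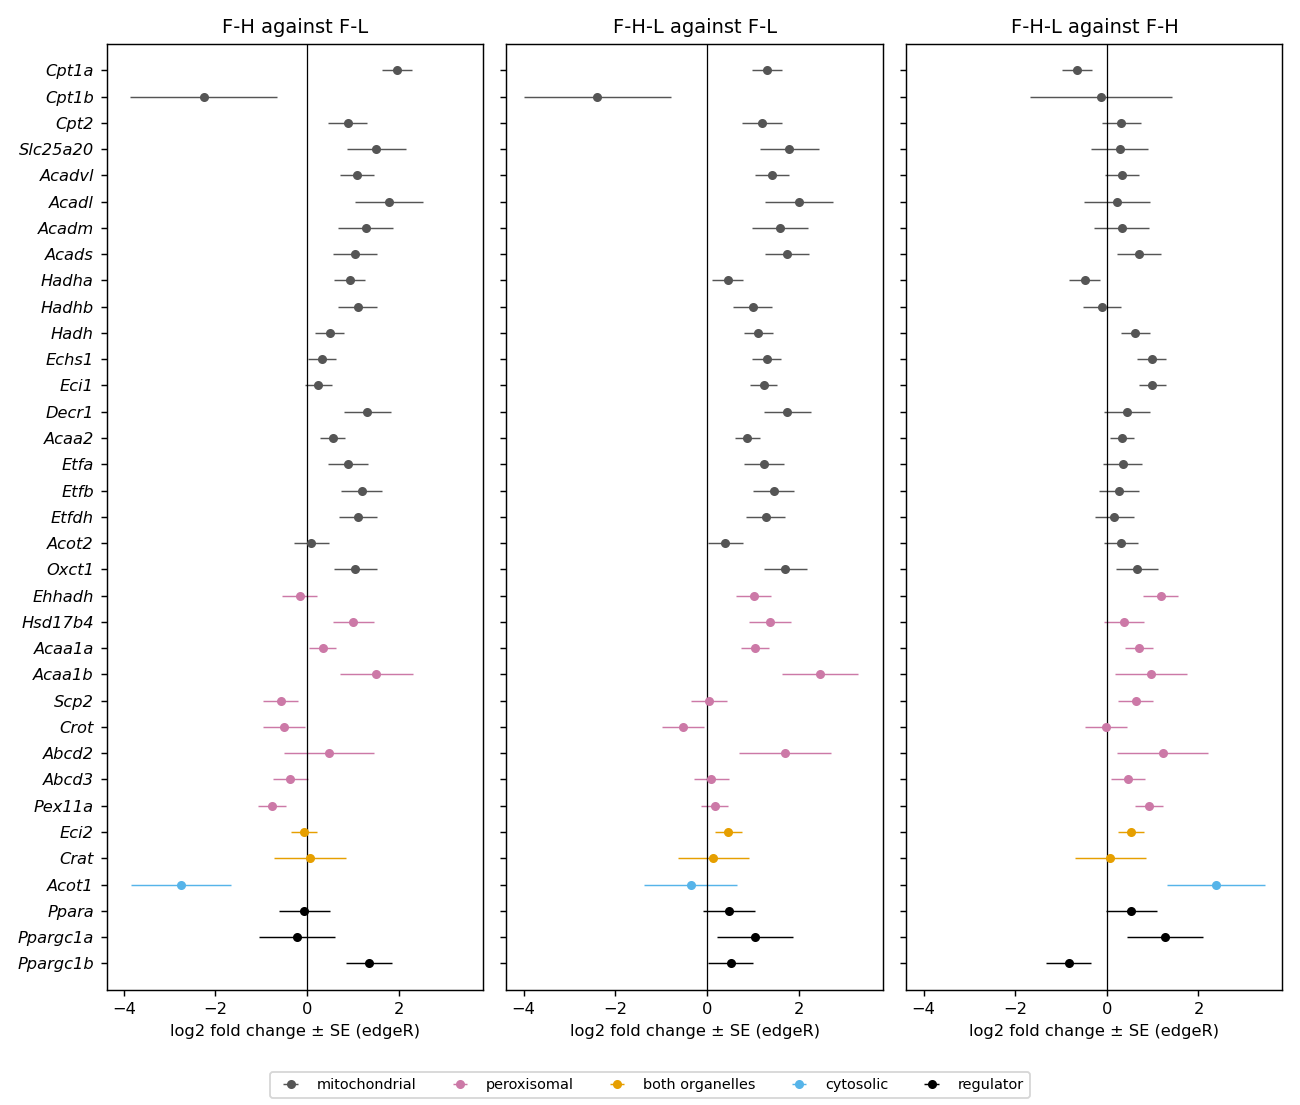
Log2 fold change and its standard error (edgeR, n = 2 libraries per group, spread pooled over all groups) for each of the 35 members in the 3 comparisons, coloured by the compartment of the protein. In F-H against F-L the 19 positive mitochondrial members stand beside peroxisomal members on both sides of 0, and in F-H-L against F-H the peroxisomal members lie at or right of 0; scaling to adipocyte markers shifts all genes to the left and turns the mitochondrial medians negative in each comparison.

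The entry of fatty acids into mitochondria was represented by 4 members. Cpt1a (Entrez 12894, chr19:3322325-3385735, plus strand, GRCm38.p6), the rate-limiting acyltransferase at the outer membrane, had the smallest p of all members in F-H against F-L. It was at 27.6 and 26.3 RPKM in F-H-L, 44.9 and 41.6 RPKM in F-H, and 9.53 and 16.7 RPKM in F-L. The 3 groups did not overlap, with F-H highest and F-L lowest. The log2 difference came to 1.97 ± 0.33 (SE, with 2 libraries a group; edgeR adjusted p = 0.0610) in F-H against F-L, 1.31 ± 0.33 (adjusted p = 0.274) in F-H-L against F-L and -0.66 ± 0.32 (adjusted p = 0.526) in F-H-L against F-H. The first of these was called in 6 of 16 alternatives, whose adjusted p ran from 0.000127 to 0.864, and it kept its sign in all 16, while the second turned to -1.49 under scaling to adipocyte markers. Macrophage markers were also highest in F-H (7184 to 12094 RPKM summed), and their part in the Cpt1a level was not tested.

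Cpt2, the inner-membrane acyltransferase, was at 45.9 and 49.1 RPKM in F-H-L, 36.3 and 42.0 RPKM in F-H, and 14.4 and 35.7 RPKM in F-L. Slc25a20, the carnitine-acylcarnitine translocase between the 2 transferases, was at 42.6 and 42.9 RPKM in F-H-L, 31.6 and 40.4 RPKM in F-H, and 5.62 and 24.4 RPKM in F-L. Both were lower in each F-L library than in any other, and in both F-L replicate 1 was the lower of the pair. The log2 fold changes of Cpt2 were 0.89 ± 0.43 (edgeR adjusted p = 0.235) in F-H against F-L, 1.21 ± 0.43 (adjusted p = 0.274) in F-H-L against F-L and 0.32 ± 0.43 (adjusted p = 0.802) in F-H-L against F-H. Those of Slc25a20 were 1.52 ± 0.64 (adjusted p = 0.188), 1.80 ± 0.65 (adjusted p = 0.274) and 0.28 ± 0.63 (adjusted p = 0.887) in the same order.

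Cpt1b, the muscle isoform, differed from the other 3. It was at 0.114 and 0.290 RPKM in F-H-L (15 and 37 counts), 0.105 and 0.363 RPKM in F-H (15 and 44 counts), and 0.0757 and 2.59 RPKM in F-L (9 and 362 counts). F-L replicate 2 alone was above 0.4 RPKM. Its log2 fold change of -2.26 ± 1.60 (edgeR adjusted p = 0.404) in F-H against F-L became 1.85 without F-L replicate 2, and that of -2.39 ± 1.61 (adjusted p = 0.428) in F-H-L against F-L became 1.65. In F-H-L against F-H it was -0.13 ± 1.55 (adjusted p = 0.986). Testis germ cell markers were highest in the same library, at 8232 RPKM summed against 10.3 to 862 RPKM in the other 5, whereas skeletal muscle markers were not (21.2 RPKM, with 6.66 to 24.3 RPKM elsewhere); the part of either in the Cpt1b level was not tested. The gene model shares 81.4% of its exonic bases with Gm44502 on the same strand, so its counts are uncertain.

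The dehydrogenases of the first step, ordered by the chain length they prefer, are Acadvl (very long), Acadl (long), Acadm (medium) and Acads (short). Acadvl was at 112 and 121 RPKM in F-H-L, 96.0 and 92.6 RPKM in F-H, and 35.4 and 69.9 RPKM in F-L. Acadm was at 181 and 193 RPKM in F-H-L, 120.4 and 188 RPKM in F-H, and 33.1 and 117.5 RPKM in F-L. F-L was lower than both other groups for each, although F-L replicate 2 lay close under F-H replicate 1 in Acadm. For Acadvl the log2 fold changes were 1.09 ± 0.37 (edgeR adjusted p = 0.132) in F-H against F-L, 1.42 ± 0.38 (adjusted p = 0.274) in F-H-L against F-L and 0.34 ± 0.37 (adjusted p = 0.754) in F-H-L against F-H. For Acadm they were 1.28 ± 0.60 (adjusted p = 0.228), 1.60 ± 0.61 (adjusted p = 0.276) and 0.32 ± 0.60 (adjusted p = 0.861) in that order. Of the exonic bases of Acadvl, 42.9% overlap Dvl2 on the opposite strand, so without a stated strand setting its reads cannot be fully told from those of Dvl2. Acadl had the largest mitochondrial log2 fold change in F-H-L against F-L, 2.00 ± 0.74 (adjusted p = 0.275), and Acads had 1.75 ± 0.49 (adjusted p = 0.274).

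Hadha and Hadhb encode the alpha and beta subunits of the trifunctional protein, which carries out the later steps on long chains, and lie head to head on chromosome 5 with starts 273 bases apart (RefSeq, GRCm38.p6). The Hadhb promoter window, 250 bases before to 50 bases after its start at chr5:30155003-30155302 (plus strand), is shown because the pair share it; capitals mark the 228 bases that also fall in the Hadha window.
Hadhb: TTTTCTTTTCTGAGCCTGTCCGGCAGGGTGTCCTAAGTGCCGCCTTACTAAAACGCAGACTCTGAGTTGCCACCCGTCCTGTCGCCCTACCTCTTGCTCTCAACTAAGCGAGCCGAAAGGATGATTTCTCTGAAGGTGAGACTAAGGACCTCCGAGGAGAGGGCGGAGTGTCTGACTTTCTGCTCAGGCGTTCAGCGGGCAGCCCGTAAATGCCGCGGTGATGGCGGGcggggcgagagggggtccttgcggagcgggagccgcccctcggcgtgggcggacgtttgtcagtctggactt

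Hadha was at 56.9 and 61.4 RPKM in F-H-L, 84.5 and 84.6 RPKM in F-H, and 38.6 and 66.1 RPKM in F-L. Hadhb was at 46.7 and 45.3 RPKM in F-H-L, 46.1 and 55.1 RPKM in F-H, and 16.6 and 39.2 RPKM in F-L. Hadha was lower in both F-H-L libraries than in both F-H libraries, while the Hadhb values of these groups overlapped. The ratio of Hadha to Hadhb, which is free of the scaling of libraries, was 1.22 and 1.36 for F-H-L, 1.83 and 1.54 for F-H, and 2.33 and 1.69 for F-L, so it was lowest in both F-H-L libraries. Log2 fold changes of Hadha were 0.94 ± 0.34 (edgeR adjusted p = 0.144) in F-H against F-L, 0.45 ± 0.34 (adjusted p = 0.467) in F-H-L against F-L and -0.48 ± 0.34 (adjusted p = 0.621) in F-H-L against F-H. Those of Hadhb were 1.11 ± 0.43 (adjusted p = 0.161), 1.0 ± 0.43 (adjusted p = 0.290) and -0.11 ± 0.42 (adjusted p = 0.944) in that order.

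Echs1, the short-chain enoyl-CoA hydratase, and Eci1, an enoyl-CoA isomerase for unsaturated chains, had the smallest p of the mitochondrial members in F-H-L against F-L and in F-H-L against F-H. Echs1 was at 147 and 171 RPKM in F-H-L, 76.3 and 89.6 RPKM in F-H, and 60.4 and 95.3 RPKM in F-L. Eci1 was at 118.5 and 142 RPKM in F-H-L, 58.7 and 75.8 RPKM in F-H, and 55.3 and 77.7 RPKM in F-L. Both F-H-L libraries were above all 4 others in each gene, and F-H and F-L overlapped. In F-H-L against F-L the log2 fold change was 1.31 ± 0.31 for Echs1 and 1.24 ± 0.29 for Eci1 (edgeR adjusted p = 0.274 for each), and in F-H-L against F-H it was 0.98 ± 0.31 (adjusted p = 0.414) for Echs1 and 0.99 ± 0.29 (adjusted p = 0.385) for Eci1. In F-H against F-L they were 0.33 ± 0.31 (adjusted p = 0.532) for Echs1 and 0.25 ± 0.29 (adjusted p = 0.614) for Eci1. DESeq2 called both in F-H-L against F-L, with adjusted p of 0.0364 for Echs1 and 0.0343 for Eci1 in ranges over 17 alternatives of 0.0164 to 0.740 and 0.0249 to 0.740. Under scaling to adipocyte markers all 4 values of F-H-L turned negative, at -1.57 and -1.71 against F-L and -0.16 and -0.14 against F-H for Echs1 and Eci1. The values against F-L include F-L replicate 1, the library lowest in these markers, and this scaling was not run without it.

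**Figure D4:**
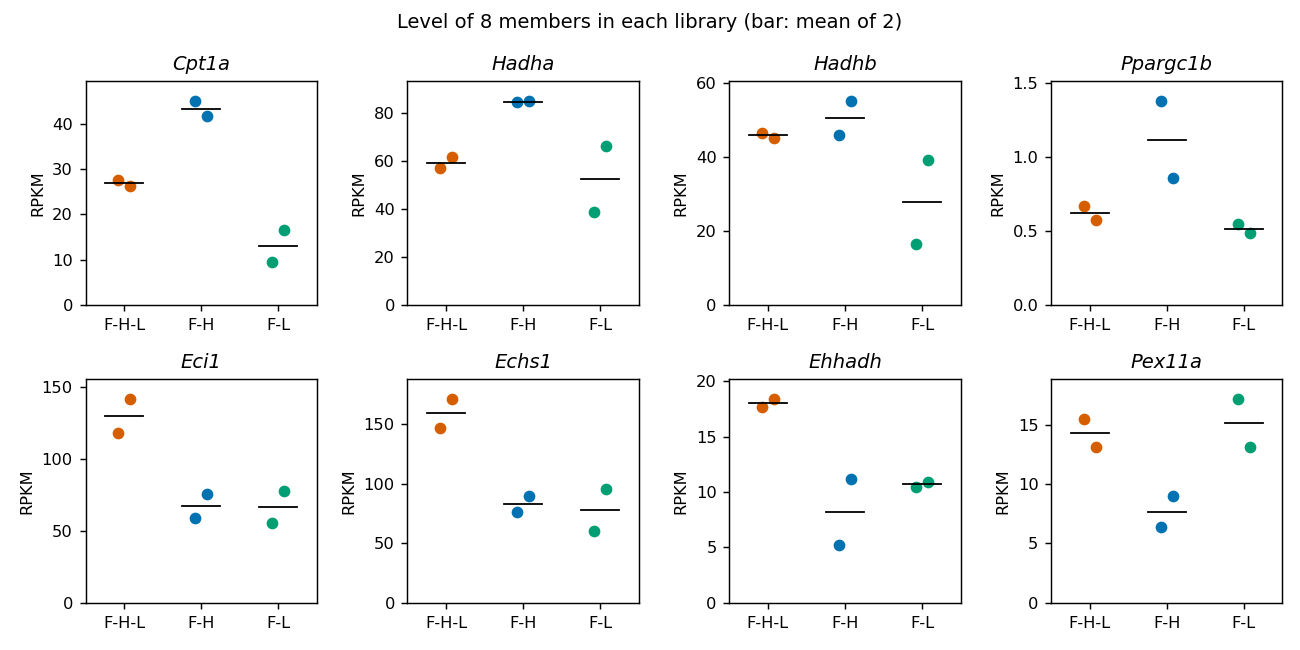
RPKM of 8 members in each library (points) with the mean of the 2 libraries of a group (bar), on axes that start at 0. Cpt1a, Hadha and Ppargc1b are highest in F-H, and Eci1, Echs1 and Ehhadh are highest in F-H-L. Pex11a is lowest in F-H, and Hadhb overlaps between F-H-L and F-H. These orders are those of the deposited RPKM scale. In fits scaled to adipocyte markers, Eci1, Echs1 and Pex11a are lower in F-H-L than in F-H. In the same fits Hadha and Ppargc1b are lower in F-H than in F-L, and Eci1, Echs1 and Ehhadh lower in F-H-L than in F-L. The directions against F-L include its replicate 1, with an adipocyte scaling factor of 0.165 against 1.32 in replicate 2. They were not fitted without it.

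Electrons from the acyl-CoA dehydrogenases pass through electron transfer flavoprotein (Etfa and Etfb) to its oxidoreductase Etfdh. Etfdh was at 47.0 and 45.9 RPKM in F-H-L, 37.9 and 46.9 RPKM in F-H, and 13.6 and 32.9 RPKM in F-L. Its log2 fold changes were 1.11 ± 0.42 (edgeR adjusted p = 0.156) in F-H against F-L, 1.28 ± 0.42 (adjusted p = 0.274) in F-H-L against F-L and 0.17 ± 0.42 (adjusted p = 0.904) in F-H-L against F-H. Oxct1, which activates ketone bodies for oxidation outside the liver, was at 150.1 and 127 RPKM in F-H-L, 92.7 and 86.0 RPKM in F-H, and 29.3 and 73.2 RPKM in F-L. Its 3 groups did not overlap, with F-H-L highest, although no difference passed the test: the log2 fold changes were 1.06 ± 0.46 (adjusted p = 0.202), 1.71 ± 0.47 (adjusted p = 0.274) and 0.66 ± 0.46 (adjusted p = 0.625) in the same order. Etfb shares 58.3% of its exonic bases with Gm45233 and Mir7051 on the same strand, so its level is uncertain. The mitochondrial members not given singly (Hadh, Decr1, Acaa2, Etfa, Etfb and Acot2, besides Acadl and Acads) had log2 fold changes between 0.09 and 1.79 in F-H against F-L, 0.40 and 2.00 in F-H-L against F-L, and 0.22 and 0.70 in F-H-L against F-H.

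RefSeq promoter windows (250 bases before to 50 after a start, GRCm38.p6) were found for 28 of 35 members and searched on both strands for the direct repeat bound by PPAR with its partner RXR (DR1, AGGTCANAGGTCA, at most 2 mismatches), for the element of the estrogen-related receptors (TNAAGGTCA, no mismatch; its last 6 bases are also a unit of the DR1) and for the palindromic NRF1 motif (no mismatch). DR1 matched 3 of 29 member windows (10.3%), against 3.86% of all 32851 windows. The NRF1 motif matched 4 of 29 (13.8%; Etfdh, Abcd3, Etfb and Ppara), against 4.6%, and the estrogen-related receptor element matched 0, against 1.28%. A match is a run of letters and not a site in use. The 3 windows with a DR1 match are shown for that match, in capitals, whose first base lies at -83 in Echs1, -77 in Etfa and 6 in Slc25a20, counted from the transcript start that RefSeq's window uses, which in Echs1 and Slc25a20 lies inside the outermost end of the gene. Echs1 is at chr7:140116372-140116671 (minus strand), Slc25a20 at chr9:108661886-108662185 (plus strand) and Etfa at chr9:55512194-55512493 (minus strand), each written 5′ to 3′ along the gene.
Echs1: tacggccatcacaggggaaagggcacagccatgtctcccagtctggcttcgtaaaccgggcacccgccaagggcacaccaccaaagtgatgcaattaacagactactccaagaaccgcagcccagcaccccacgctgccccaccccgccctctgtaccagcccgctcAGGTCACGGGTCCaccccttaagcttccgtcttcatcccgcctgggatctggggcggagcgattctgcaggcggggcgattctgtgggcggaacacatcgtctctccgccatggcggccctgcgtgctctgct
Slc25a20: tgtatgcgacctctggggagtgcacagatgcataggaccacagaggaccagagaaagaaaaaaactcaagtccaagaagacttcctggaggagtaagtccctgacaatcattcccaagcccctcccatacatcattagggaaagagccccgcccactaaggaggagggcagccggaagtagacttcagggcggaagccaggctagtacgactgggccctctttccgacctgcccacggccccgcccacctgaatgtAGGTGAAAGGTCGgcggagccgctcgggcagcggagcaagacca
Etfa: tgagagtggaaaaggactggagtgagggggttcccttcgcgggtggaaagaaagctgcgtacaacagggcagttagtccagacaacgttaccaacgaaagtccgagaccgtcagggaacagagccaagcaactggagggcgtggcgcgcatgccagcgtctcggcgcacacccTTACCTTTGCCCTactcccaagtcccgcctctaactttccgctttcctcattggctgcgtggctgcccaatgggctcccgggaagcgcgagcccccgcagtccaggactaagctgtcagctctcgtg
The Etfa match lies on the strand opposite to the gene. The levels of these 3 genes were not all ordered alike across the groups: Echs1 was highest in F-H-L with F-H and F-L overlapping, whereas Slc25a20 and Etfa were lowest in F-L. For Etfa that order was narrow, with F-L replicate 2 at 137.2 RPKM and F-H replicate 1 at 137.8 RPKM. The log2 fold changes of Slc25a20 and Etfa in F-H-L against F-H were 0.28 ± 0.63 and 0.34 ± 0.43.

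Uptake into peroxisomes is served by the ABC transporters Abcd2 and Abcd3. Abcd2 was at 96.0 and 85.6 RPKM in F-H-L, 32.0 and 48.2 RPKM in F-H, and 5.58 and 63.2 RPKM in F-L. Abcd3 was at 29.4 and 24.2 RPKM in F-H-L, 16.8 and 23.0 RPKM in F-H, and 38.0 and 21.2 RPKM in F-L. Abcd2 was highest in both F-H-L libraries and lowest in F-L replicate 1, where Abcd3 was highest. For Abcd2 the log2 fold changes were 0.48 ± 0.98 (edgeR adjusted p = 0.783) in F-H against F-L, 1.70 ± 1.005 (adjusted p = 0.378) in F-H-L against F-L and 1.22 ± 0.99 (adjusted p = 0.668) in F-H-L against F-H. For Abcd3 they were -0.36 ± 0.38 (adjusted p = 0.575), 0.10 ± 0.38 (adjusted p = 0.901) and 0.46 ± 0.38 (adjusted p = 0.669), and the middle value turned to -0.01 with median-ratio factors. Adipocyte markers were also lower in F-L replicate 1 (20 of 20), and their part in the Abcd2 level was not tested.

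The steps after the first are carried by 2 bifunctional enzymes, Ehhadh for straight chains and Hsd17b4 for branched and very long ones. Ehhadh was at 17.7 and 18.4 RPKM in F-H-L, 5.26 and 11.2 RPKM in F-H, and 10.5 and 10.9 RPKM in F-L. Hsd17b4 was at 134 and 142 RPKM in F-H-L, 94.5 and 124 RPKM in F-H, and 38.2 and 90.7 RPKM in F-L. Ehhadh was above all other libraries in F-H-L, and the F-L libraries, far apart in most members, differed by little here, while Hsd17b4 followed the order of the mitochondrial members. In F-H against F-L the log2 fold change was -0.16 ± 0.38 (edgeR adjusted p = 0.812) for Ehhadh and 1.01 ± 0.45 (adjusted p = 0.206) for Hsd17b4. In F-H-L against F-L it was 1.02 ± 0.38 (adjusted p = 0.276) for Ehhadh and 1.38 ± 0.45 (adjusted p = 0.274) for Hsd17b4, and in F-H-L against F-H it was 1.18 ± 0.38 (adjusted p = 0.418) for Ehhadh and 0.37 ± 0.44 (adjusted p = 0.773) for Hsd17b4.

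Thiolysis in peroxisomes is carried out by the 3-ketoacyl-CoA thiolases A and B, encoded by Acaa1a (chr9:119341052-119350296, plus strand) and Acaa1b (chr9:119148043-119157093, minus strand). The spliced models share many 50-base stretches, 30.5% of those of Acaa1b and 12.4% of those of Acaa1a, so the split of reads between them is uncertain.

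Acaa1a was at 97.4 and 113 RPKM in F-H-L, 62.6 and 69.6 RPKM in F-H, and 69.7 and 51.8 RPKM in F-L. Acaa1b was at 36.4 and 43.9 RPKM in F-H-L, 17.6 and 24.99 RPKM in F-H, and 2.38 and 15.5 RPKM in F-L. Acaa1b was 28.1% to 38.9% of Acaa1a in 5 libraries and 3.42% in F-L replicate 1. The log2 fold changes of Acaa1a were 0.34 ± 0.30 (edgeR adjusted p = 0.501) in F-H against F-L, 1.05 ± 0.30 (adjusted p = 0.274) in F-H-L against F-L and 0.70 ± 0.30 (adjusted p = 0.490) in F-H-L against F-H. Those of Acaa1b were 1.51 ± 0.80 (adjusted p = 0.272), 2.46 ± 0.82 (adjusted p = 0.274) and 0.96 ± 0.79 (adjusted p = 0.669) in that order. The value of 2.46 was the largest of any member in F-H-L against F-L, and it was called in 3 of 17 alternatives, with adjusted p from 8.56e-06 to 0.740.

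Pex11a, which takes part in the growth and division of peroxisomes, had the smallest p of the peroxisomal members in F-H against F-L. It was at 15.5 and 13.1 RPKM in F-H-L, 6.39 and 8.97 RPKM in F-H, and 17.2 and 13.1 RPKM in F-L. F-H was below both other groups, which overlapped. The log2 fold change was -0.76 ± 0.30 (edgeR adjusted p = 0.168) in F-H against F-L, 0.17 ± 0.30 (adjusted p = 0.774) in F-H-L against F-L and 0.93 ± 0.30 (adjusted p = 0.419) in F-H-L against F-H. The first was negative in all 16 alternatives, with adjusted p from 0.0507 to 0.638, and the third turned to -0.18 under scaling to adipocyte markers. Scp2 and Crot, the carnitine octanoyltransferase that exports shortened chains, were the other peroxisomal members, and their log2 fold changes were -0.58 ± 0.39 and -0.51 ± 0.46 in F-H against F-L, 0.05 ± 0.39 and -0.52 ± 0.46 in F-H-L against F-L, and 0.63 ± 0.39 and -0.01 ± 0.46 in F-H-L against F-H. Both were highest in F-L replicate 1, at 286 RPKM for Scp2 and 29.5 RPKM for Crot, where epididymis epithelium markers were also highest (12107 RPKM summed); their part in these levels was not tested.

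Crat, the carnitine acetyltransferase of both organelles, was at 33.6 and 33.9 RPKM in F-H-L, 31.2 and 34.2 RPKM in F-H, and 9.77 and 65.4 RPKM in F-L. The 4 F-H-L and F-H libraries lay close together, and the F-L libraries lay on either side of them. Its log2 fold changes were 0.06 ± 0.78 (edgeR adjusted p = 0.968) in F-H against F-L, 0.14 ± 0.78 (adjusted p = 0.933) in F-H-L against F-L and 0.08 ± 0.78 (adjusted p = 0.982) in F-H-L against F-H, and the first 2 changed sign with median-ratio factors, at -0.03 and -0.01. Eci2, an isomerase of both organelles, was at 50.7 and 56.5 RPKM in F-H-L, 31.8 and 44.5 RPKM in F-H, and 51.5 and 41.2 RPKM in F-L.

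Acot1, a cytosolic acyl-CoA thioesterase, was at 8.79 and 3.14 RPKM in F-H-L, 0.560 and 1.76 RPKM in F-H, and 14.7 and 2.95 RPKM in F-L. F-H was lowest in both libraries, and the libraries of each group were far apart. The log2 fold change was -2.75 ± 1.08 (edgeR adjusted p = 0.165) in F-H against F-L, -0.36 ± 1.01 (adjusted p = 0.861) in F-H-L against F-L and 2.39 ± 1.07 (adjusted p = 0.505) in F-H-L against F-H. DESeq2 called the first (adjusted p = 0.0287, in a range of 0.00591 to 0.561 over 16 alternatives). Of its 50-base stretches, 13.6% also occur in Acot2, its mitochondrial relative, so the counts of both are uncertain.

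Of the regulators, Ppara encodes the fatty acid-sensing receptor PPARα, and Ppargc1a and Ppargc1b encode the coactivators PGC-1α and PGC-1β. Ppara was at 0.806 and 0.504 RPKM in F-H-L, 0.379 and 0.542 RPKM in F-H, and 0.418 and 0.709 RPKM in F-L. Ppargc1a was at 0.624 and 0.252 RPKM in F-H-L, 0.0871 and 0.283 RPKM in F-H, and 0.190 and 0.310 RPKM in F-L, with 51 to 336 counts a library. The groups overlapped in both genes in every comparison. Ppargc1b was at 0.668 and 0.575 RPKM in F-H-L, 1.38 and 0.856 RPKM in F-H, and 0.545 and 0.487 RPKM in F-L, and the groups did not overlap, with F-H highest. Its log2 fold change was 1.35 ± 0.50 (edgeR adjusted p = 0.147) in F-H against F-L, 0.52 ± 0.49 (adjusted p = 0.562) in F-H-L against F-L and -0.83 ± 0.49 (adjusted p = 0.573) in F-H-L against F-H. DESeq2 called the first (adjusted p = 0.0279, in a range of 0.0279 to 0.709 over 15 alternatives), and under scaling to adipocyte markers it was -0.66. For Ppara the 3 values were -0.06 ± 0.56 (adjusted p = 0.959), 0.48 ± 0.56 (adjusted p = 0.644) and 0.53 ± 0.56 (adjusted p = 0.741), and for Ppargc1a -0.22 ± 0.82 (adjusted p = 0.887), 1.06 ± 0.83 (adjusted p = 0.487) and 1.27 ± 0.83 (adjusted p = 0.603). Ucp1, the uncoupling protein of brown and beige fat cells, was at 0.0134 and 0.0138 RPKM in F-H-L, 1.17 and 3.45 RPKM in F-H, and 0.0592 and 0.0378 RPKM in F-L. In the list of 9 brown or beige adipocyte markers to which it and Ppargc1a belong, 8 were positive in F-H against F-L (median log2 fold change 1.74), the direction of Ucp1. Ucp1 did not stand for the list in the comparisons with F-H-L. There the list had medians of 1.06 against F-L and -0.19 against F-H, and Ucp1 had log2 fold changes of -1.47 and -7.20. That list summed to 68.5 and 71.4 RPKM in F-H-L, 55.7 and 82.6 RPKM in F-H, and 5.76 and 26.7 RPKM in F-L.

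The compartments also stood differently in the F-L libraries, which were the least alike of any replicate pair (correlation of log2 CPM across genes 0.815, against 0.970 in F-H-L and 0.948 in F-H). In F-L replicate 1, 19 of 20 mitochondrial members were lower than in F-L replicate 2, with a median log2 ratio of -1.26 on the RPKM scale, against -0.11 over all genes. Of 9 peroxisomal members, 4 were lower and 5 higher, with a median of 0.39. The 5 were Crot (log2 ratio 1.17), Abcd3 (0.84), Scp2 (0.64), Acaa1a (0.43) and Pex11a (0.39), and the 4 were Abcd2 (-3.50), Acaa1b (-2.70), Hsd17b4 (-1.25) and Ehhadh (-0.06). Within F-H the medians were -0.26 for mitochondrial and -0.49 for peroxisomal members, and within F-H-L they were -0.09 and -0.05. The adipocyte markers had a median log2 ratio of -3.02 between the F-L libraries (20 of 20 lower in replicate 1), the macrophage markers -1.16 (14 of 15), the testis germ cell markers -4.17 (14 of 14), and the epididymis epithelium markers 2.33 (15 of 19 higher). What these tissue markers contribute to the levels of the members was not tested.

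**Figure D5:**
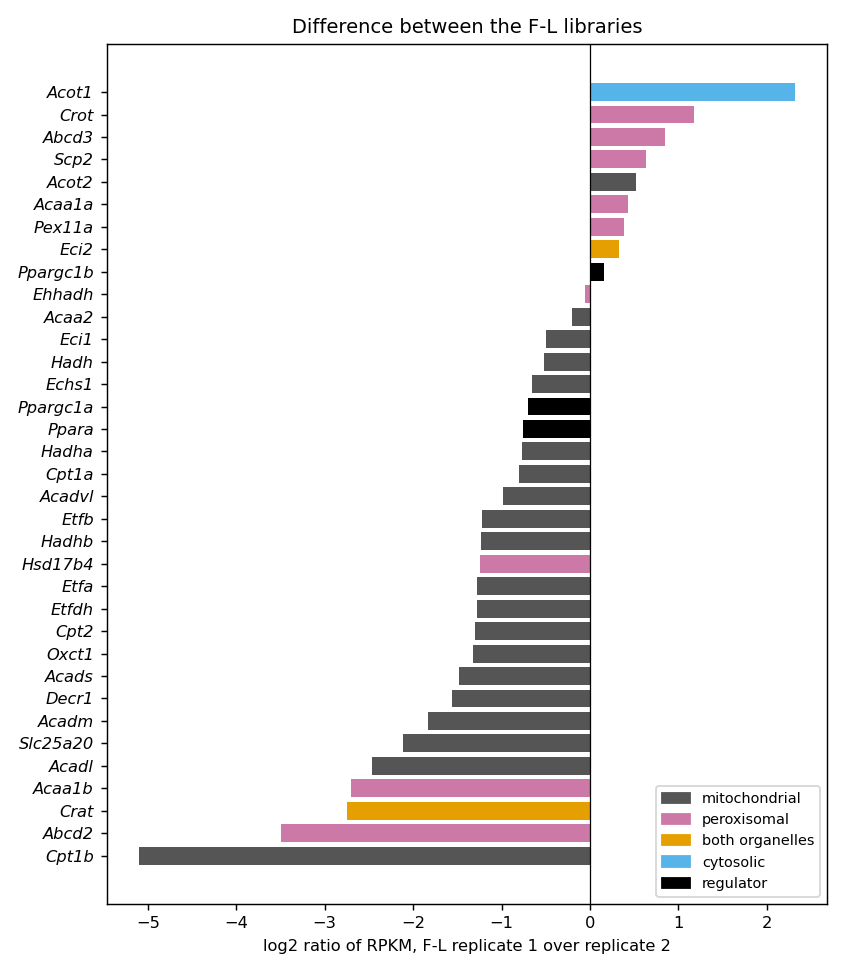
Log2 ratio of the RPKM of F-L replicate 1 over F-L replicate 2 for each of the 35 members, coloured by the compartment of the protein. Mitochondrial members lie left of 0 in 19 of 20 cases, and 5 of 9 peroxisomal members lie right of it.

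Beyond the members, 3 further lists covered the rest of the pathway, and none of their genes passed the test in any comparison (edgeR, 98 genes tested). These lists follow the pathway, and not every product lies in the organelle that names its list. Of 32 genes on the other mitochondrial list, 19, 22 and 26 had a positive log2 fold change in F-H against F-L, F-H-L against F-L and F-H-L against F-H. The medians were 0.09, 0.77 and 0.69. Among 41 tested genes of peroxisomal oxidation and peroxisome assembly the counts were 21, 30 and 36, with medians of 0.04, 0.37 and 0.53. Among 25 other regulators they were 17, 19 and 17, with medians of 0.46, 0.59 and 0.33. In F-H against F-L the medians of the wider mitochondrial and peroxisomal lists thus lay close together (0.09 and 0.04), unlike those of the members (1.05 and -0.16). The wider lists are not a strict split by organelle, and this difference was not tested. These directions are relative to the bulk of genes, as for the members. Summed, the genes of the other mitochondrial list held 1277.6 and 1394 RPKM in F-H-L, 795.3 and 1046.4 RPKM in F-H, and 1079.9 and 1037.5 RPKM in F-L. Those of the other peroxisomal list held 1059.6 and 1064 RPKM in F-H-L, 651.2 and 848 RPKM in F-H, and 660.2 and 825.7 RPKM in F-L. Unlike for the members, F-H did not have the lowest peroxisomal share in these sums.

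A few of these genes had the smallest p of their lists. Klf15, a transcription factor of fasting metabolism, was at 11.2 and 11.3 RPKM in F-H-L, 3.48 and 4.53 RPKM in F-H, and 10.9 and 9.71 RPKM in F-L. Klf15 was lowest in F-H, with log2 fold changes of -1.14 ± 0.26 (edgeR adjusted p = 0.0790) against F-L and 1.53 ± 0.26 (adjusted p = 0.244) in F-H-L against F-H. Slc25a29, a mitochondrial carrier, was at 4.10 and 4.27 RPKM in F-H-L, 1.08 and 0.947 RPKM in F-H, and 36.3 and 6.62 RPKM in F-L. Its log2 fold change of -4.21 ± 0.91 (adjusted p = 0.0762) in F-H against F-L was the lowest of its list, and it was highest in F-L replicate 1, where the epididymis epithelium markers were highest as well. Pccb and Acat1, of propionyl-CoA and acetoacetyl-CoA metabolism, and Pmvk and Pxmp4, of peroxisomes, were higher in both F-H-L libraries than in all 4 others. Against F-H their log2 fold changes were 1.06 ± 0.30, 0.99 ± 0.34, 1.65 ± 0.40 and 0.96 ± 0.28, with adjusted p of 0.369, 0.431, 0.335 and 0.387.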

How the data were processed

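Libraries were made from total RNA with a TruSeq kit and sequenced on a HiSeq instrument, per the labels' protocols; HISAT2 2.1.0, HTSeq and the mm10 build are named in the submitters' processing notes, while neither annotation release nor strand setting is stated there. The deposited table holds, as made by the authors, whole-number counts per gene, RPKM values and a gene length. From the counts, edgeR 4.0.16 (R 4.3.3; TMM factors, filterByExpr, quasi-likelihood test over all 6 libraries) gave log2 fold changes, whose SE is the log2 fold change divided by the root of F, with Benjamini-Hochberg adjustment over 22289 genes and a threshold of 0.05. The deposited RPKM values were used for levels, sums and overlap of groups. With 2 libraries a group the precision is set by the spread between libraries (biological coefficient of variation 0.631). DESeq2 1.42.0, limma 3.58.1 on log2 RPKM and other scalings, filters, blocks and left-out libraries were run as alternatives. The members, lists and compartments were chosen with earlier results of these data known. Singly described genes were those of a fixed list by role, the 3 smallest p of each compartment and comparison, and at most 3 of each further list; those named as examples beyond this were chosen after their values were seen. Symbols turned into dates (27) were restored.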

Additional observations from a re-analysis of the deposited data

How the results depend on the processing

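In F-H against F-L, where 193 genes and 0 members were called, the count of genes was 0 with robust empirical Bayes, median-ratio factors, the replicate block and the 2 groups alone, 3872 with scaling to adipocyte markers, 6025 without the low-count filter, 421 at a mean RPKM of at least 1, 6035 with DESeq2, and 411 and 1040 with limma on log2(RPKM + 1) and log2(RPKM + 0.1). Members called there were 1 with adipocyte scaling (lower), 8 without the filter, 1 at a mean RPKM of at least 1, 3 with DESeq2 and 1 with limma on log2(RPKM + 0.1). In F-H-L against F-L, with 0 called, genes were 8517 with adipocyte scaling, 3910 without the filter and 2444 with DESeq2, and members were 2, 17 and 2 in that order; with adipocyte scaling both members were lower and 6 of the 8517 genes were higher, whereas the 17 and the 2 were all higher. In F-H-L against F-H, genes were 9 with adipocyte scaling, 1759 without the filter, 289 with the 2 groups alone and 1196 with DESeq2, and no member was called in any setting. The mitochondrial minus peroxisomal median kept its sign throughout. Some settings, such as robust empirical Bayes or leaving out a library of the group not compared, could alter it little or not at all. Without the genes that share part of their sequence with a relative, this difference was 1.14 in F-H-L against F-L and -0.303 in F-H-L against F-H. With Eci2 and Crat counted as peroxisomal it was -0.307 in F-H-L against F-H. Adipocyte scaling, which moves the median of all genes by construction to -2.06, -3.19 and -1.02 in F-H against F-L, F-H-L against F-L and F-H-L against F-H, left 5, 2 and 4 of 35 members positive in those comparisons, against 25, 32 and 29. Of the members described singly, those that reversed in F-H against F-L were Cpt2 (-0.559), Acadvl (-0.493), Hadha (-0.742), Hadhb (-0.377), Etfdh (-0.352), Oxct1 (-0.368), Hsd17b4 (-0.482), Abcd2 (-0.069), Crat (-0.741) and Ppargc1b (-0.656). In F-H-L against F-L they were Cpt1a (-1.486), Cpt2 (-1.374), Slc25a20 (-0.403), Acadvl (-1.303), Acadm (-0.735), Hadha (-2.37), Hadhb (-1.607), Etfdh (-1.308), Oxct1 (-0.85), Ehhadh (-2.094), Hsd17b4 (-1.229), Abcd3 (-3.299), Pex11a (-3.095), Crat (-1.795), Ppara (-2.318), Ppargc1a (-1.742), Ppargc1b (-2.658), Eci1 (-1.705), Echs1 (-1.569) and Acaa1a (-2.241). In F-H-L against F-H they were Cpt2 (-0.815), Slc25a20 (-0.837), Acadvl (-0.81), Acadm (-0.781), Etfdh (-0.955), Oxct1 (-0.482), Acaa1b (-0.16), Hsd17b4 (-0.747), Abcd3 (-0.645), Pex11a (-0.176), Crat (-1.054), Ppara (-0.554), Eci1 (-0.135), Echs1 (-0.157) and Acaa1a (-0.433). Values near 0 also turned: Crat in F-H against F-L (-0.033 with median-ratio factors and with DESeq2), and in F-H-L against F-L Crat (-0.011 with both), Abcd3 (-0.014 with both, -0.088 and -0.089 with limma at + 1 and + 0.1) and Pex11a (-0.071 and -0.075 with limma). The cause was not tested for any of the other changes. The reversals against F-L under adipocyte scaling include F-L replicate 1, with a scaling factor of 0.165 against 1.32 in F-L replicate 2. This scaling was not run without that library. Leaving out 1 library at a time gave 0 to 5799 genes, 0 to 19 members and a mitochondrial minus peroxisomal median of 0.421 to 1.959 in F-H against F-L, with log2 fold changes of -3.235 to 1.845 for Cpt1b, -0.682 to 0.305 for Ehhadh, -0.398 to 3.099 for Abcd2, -0.673 to 0.173 for Abcd3, -0.733 to 2.007 for Crat, -0.362 to 0.397 for Ppara and -1.161 to 0.432 for Ppargc1a. In F-H-L against F-L it gave 0 to 3508 genes, 0 to 20 members, a median difference of 0.162 to 1.126, and -3.429 to 1.652 for Cpt1b, -0.274 to 0.567 for Abcd3, -0.034 to 0.353 for Pex11a, -0.724 to 2.022 for Crat and -1.159 to 1.231 for Acot1. In F-H-L against F-H it gave 0 to 828 genes and -1.006 to 0.946 for Cpt1b. The deviations of equally numbered libraries from their group means were little correlated across genes (0.0244 for F-H and F-L, -0.138 for F-H-L and F-L, -0.0189 for F-H-L and F-H). With 2 libraries a group these values cannot show whether the libraries were paired. The replicate block called 0 genes in each comparison and turned no direction among the named members. The crossed pairing of F-H-L and F-L, added after seeing the data, called 0 genes and 0 members, with Acot1 at 0.183. Library totals were similar, and whether depth limits the members with few counts (Cpt1b, 9 to 362 a library) was not tested.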
